A study of Mus musculus with 2 samples.

Results

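AP-1 is a family of transcription factors that act as pairs of basic leucine zipper (bZIP) proteins, and its subunits were followed here in mouse regulatory T cells (Tregs) with and without Hopx. The members were taken by gene symbol: Fos, Fosb, Fosl1, Fosl2, Jun, Junb, Jund, Atf3, Batf and Batf3. All 10 were measured, by 14 of the 34945 probe sets that carry 1 gene symbol, out of 18193 genes in all. The cells were FACS-sorted ex vivo as positive for both CD25 and Foxp3, after DC-induced conversion in vivo and immunization. One group is labelled Hopx-sufficient and the other Hopx-/-, called Hopx-deficient below. Each group has 1 array, so the design holds 2 arrays. Hopx is a small homeodomain-only cofactor that binds no DNA itself. The strain, age and number of mice, the antigen and the time after immunization are not given in the sources used here, nor is the exact genotype behind the word sufficient.

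Jun proteins can pair with themselves or with Fos proteins, whereas Fos proteins need a partner, and the pair binds the DNA sequence TGACTCA or close relatives of it. In T cells, antigen receptor and CD28 signals reach AP-1 through the MAP kinases, and AP-1 then binds beside NFAT at genes such as Il2. Batf and Batf3 lack the activation domains of Fos; they pair with Jun proteins and bind together with Irf4 or Irf8. Published work on Hopx in these cells concerned AP-1, which is the question this comparison addresses.

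Every value is a difference on an assumed log2 scale, Hopx-deficient minus Hopx-sufficient, with the median over probe sets set to 0. A log2 difference of 1 is a 2-fold difference. With 1 array per genotype no value has a replicate error and no test was possible, so thresholds of 1.5-fold and 2-fold served as rules of size. Each probe set's deposited values were centred on their own mean over both arrays and so hold no signal level: whether a subunit was detected, and which subunit was the most abundant, cannot be given. The labelled cell type could not be checked against marker levels for the same reason. In these bulk samples a change in the share of cells that carry a transcript cannot be told apart from a change per cell.

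The promoters of 3 members are shown because their transcripts mark the ends of the family and its central pair: Fos was the highest member, Fosl2 the lowest, and Jun encodes the main partner of Fos. Each sequence is the 250 bases before the gene's start in RefSeq (GRCm38.p6), read 5′ to 3′ on the gene's own strand. Fos lies at chr12:85473640-85473889 on the plus strand, Jun at chr4:95052223-95052472 on the minus strand and Fosl2 at chr5:32136222-32136471 on the plus strand. Capitals mark TGACG, the half-site of the cAMP response element (CRE), in Fos, and TGACATCA, an AP-1-like site, in Jun; Fosl2 held neither.
Fos: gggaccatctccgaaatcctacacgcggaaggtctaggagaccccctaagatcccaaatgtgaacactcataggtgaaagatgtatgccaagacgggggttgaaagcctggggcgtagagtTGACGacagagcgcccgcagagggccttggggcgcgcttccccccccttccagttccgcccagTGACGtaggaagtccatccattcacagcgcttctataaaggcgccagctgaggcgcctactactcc
Jun: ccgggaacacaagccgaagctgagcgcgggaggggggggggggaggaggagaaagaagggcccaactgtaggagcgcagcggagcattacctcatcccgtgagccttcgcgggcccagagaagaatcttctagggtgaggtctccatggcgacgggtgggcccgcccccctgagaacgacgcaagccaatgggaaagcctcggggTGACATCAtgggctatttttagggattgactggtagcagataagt
Fosl2: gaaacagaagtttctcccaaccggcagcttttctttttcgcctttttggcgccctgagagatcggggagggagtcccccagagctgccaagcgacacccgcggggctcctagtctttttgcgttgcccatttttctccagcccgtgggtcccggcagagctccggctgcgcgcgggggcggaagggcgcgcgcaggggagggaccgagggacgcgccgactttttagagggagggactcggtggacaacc
Promoters were found for 9 members, all but Fosl1. Of these, 5 held TGACG on either strand (Fos, Fosb, Junb, Batf and Atf3), a motif present in 17.8% of all 32851 promoters of this length. Fos held it at 129 to 125 and again at 66 to 62 bases before the start. TGACATCA stood only in Jun, at 45 to 38 bases before the start, and in 2.93% of all promoters. None of the 9 held the consensus AP-1 site TGACTCA (4.46% of all promoters), the full CRE TGACGTCA (1.55%, each match also a match to TGACG) or the CArG box that serum response factor binds (1.47%). The serum response element known for Fos lies further upstream than this window.

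The targeted gene was checked first. In Hopx-deficient cells Hopx stood 35.6-fold lower, with probe sets at -4.87 and -5.44, in the direction the labels require.

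Among the AP-1 genes 1 stood out. Fos was 2.15-fold higher in Hopx-deficient cells, a log2 difference of 1.10, and was 1 of only 2 genes among all 18193 that were at least 2-fold higher. None of the other 9 members differed by 1.5-fold; they ran from -0.51 (Fosl2) to 0.25 (Jun). In all, 6 of the 10 genes were higher and 4 lower, with a median of 0.04 and a mean of 0.10, against a median of 0.00078 over all genes, of which 50.1% were higher. At 1.5-fold, 1 member was higher, beside 0.297% of all genes, and 0 were lower, beside 1.31%. At 2-fold the same member was higher, beside 0.011% of all genes, and 0 were lower, beside 0.143%. Of the 10 genes, 8 lay inside the range from -0.48 to 0.38 that holds the central 95% of all genes; Fos lay above it and Fosl2 below it.

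**Figure D1:**
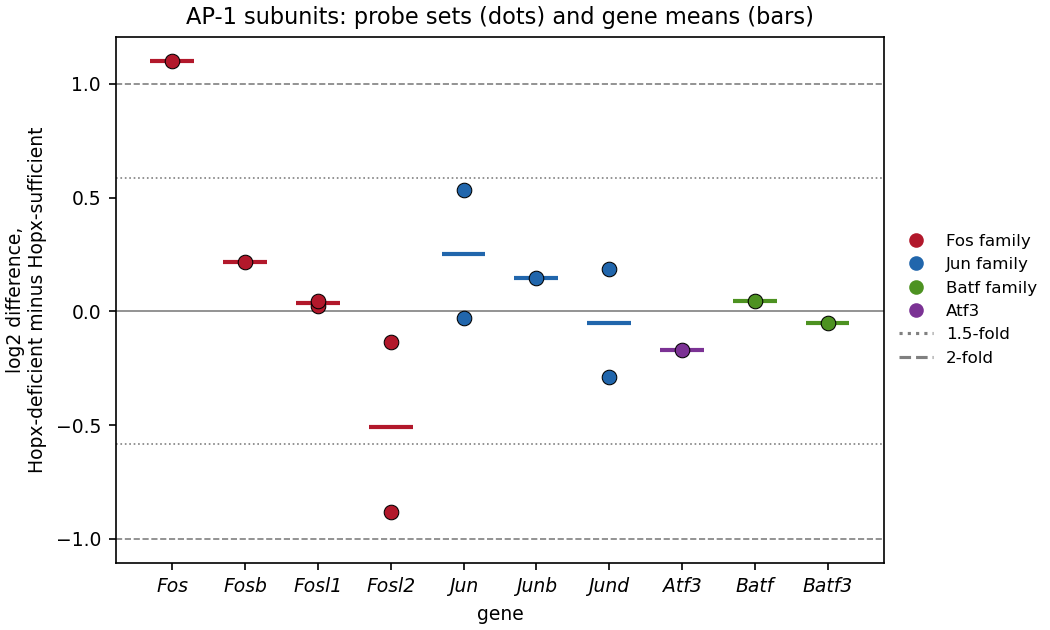
Log2 difference (Hopx-deficient minus Hopx-sufficient) for each of the 14 probe sets (dots) of the 10 AP-1 genes, with the gene mean as a bar; dotted lines mark 1.5-fold and dashed lines 2-fold. Fos lies above the 2-fold line, a single probe set of Fosl2 lies below the lower 1.5-fold line, and the 2 probe sets of Jun and of Jund straddle 0.

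Fos, the founding member of its family and a classic immediate-early gene, was measured by 1 probe set. Its deposited value was -0.55 in Hopx-sufficient and 0.55 in Hopx-deficient cells. Among the 34945 probe sets with 1 symbol it ranked 2 from the top. In the ranking of genes, only Arrdc3 (1.13), an arrestin-domain gene, stood above it, and the haem oxygenase gene Hmox1 (0.93) and the replacement histone gene H3f3b (0.91) came next. Since no other probe set measures Fos, the arrays hold no internal check of its size. The platform annotation names the source of this probe set as a GenBank entry outside RefSeq's transcripts.

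Fosb, which like Fos carries an activation domain and is induced by the same signals, was 1.16-fold higher (0.22), with deposited values of -0.11 in Hopx-sufficient and 0.11 in Hopx-deficient cells. It ranked at percentile 89.1 of genes, far short of Fos. Fosl1, or Fra-1, had both probe sets close to 0, at 0.03 and 0.05. These were the most alike pair of any member.

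Fosl2, or Fra-2, a Fos-related subunit without a strong activation domain, was the lowest member at -0.51 (1.42-fold lower, percentile 2.14 of genes). Its probe sets gave different sizes. The lower one was deposited at 0.44 in Hopx-sufficient and -0.44 in Hopx-deficient cells, a difference of -0.88 or 1.84-fold, which ranked 87 from the bottom of all probe sets. The other, designed on the RefSeq transcript, was deposited at 0.06 and -0.06, a difference of -0.14. Both lay on the lower side, so the Fos family held both the highest and the lowest AP-1 gene. The family's mean was 0.21 over 4 genes, with a median of 0.13.

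**Figure D2:**
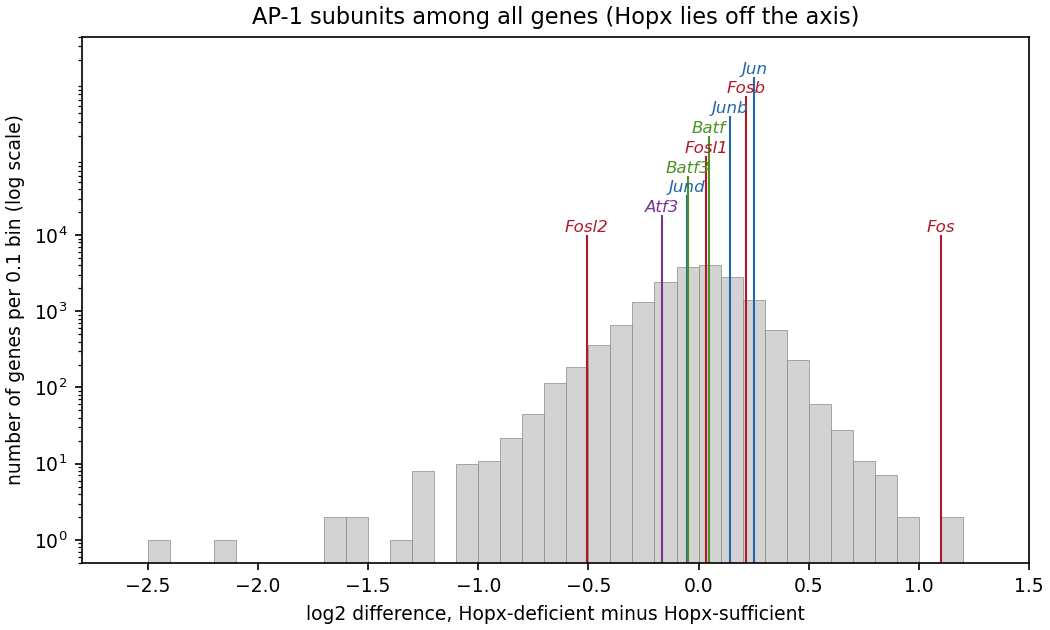
Number of genes (log scale) per bin of log2 difference, Hopx-deficient minus Hopx-sufficient, over 18193 genes, with vertical lines at the 10 AP-1 genes coloured by family. Fos sits at the upper edge of the distribution and Fosl2 on its lower flank, while the other 8 lie inside its central 95%. Hopx is off the axis.

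In the Jun family, Jun, Junb and Jund stood at 0.25, 0.14 and -0.05, a mean of 0.12 over 3 genes. Jun, the strongest activator of the family, gave an unclear result. One probe set was deposited at -0.27 in Hopx-sufficient and 0.27 in Hopx-deficient cells, a difference of 0.53 or 1.45-fold, at percentile 99.2 of probe sets. The other was deposited at 0.0099 and -0.0099, a difference of -0.03. Both name the same RefSeq transcript as their source, yet one placed Jun near the top of the array and the other at its middle.

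Junb, which acts as a weaker activator than Jun and is prominent in T helper cells, had 1 probe set, deposited at -0.08 in Hopx-sufficient and 0.08 in Hopx-deficient cells, a difference of 0.14. Jund, the family member expressed most evenly across cell states, had probe sets of opposite sign. The one designed on its RefSeq transcript differed by 0.19 and the other by -0.29. Their mean near 0 therefore stands for a pair of unlike values.

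Agreement between probe sets of a gene shows how alike separate probe sets read the same 2 arrays. It holds no error between mice or between arrays of a genotype. Over the 9010 genes with more than 1 probe set, the standard deviation within a gene was 0.18. In the 4695 genes with exactly 2, the median distance between them was 0.16, and in 40.4% they lay on opposite sides of 0. The distance was 0.75 for Fosl2, reached or passed by 0.703% of those genes, 0.56 for Jun (3.26%), 0.47 for Jund (6.69%) and 0.02 for Fosl1 (93.2%). So 3 of the 4 AP-1 genes with a pair of probe sets were among the less well agreeing genes of the array, and the differences of Fosl2, Jun and Jund were each smaller than the distance between their own probe sets.

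**Figure D3:**
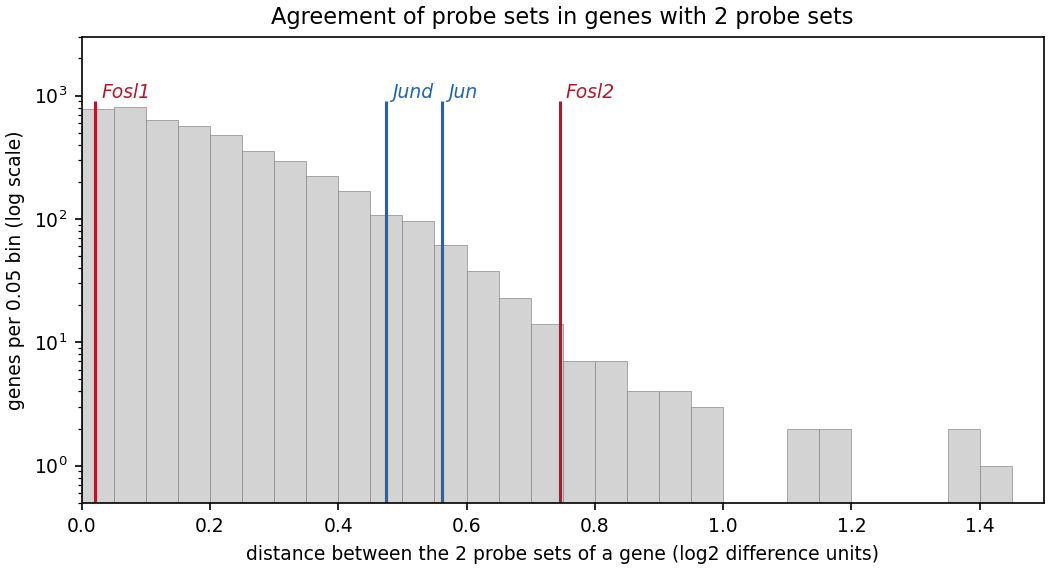
Number of genes (log scale) by the distance between their 2 probe sets, in units of log2 difference, for the 4695 genes with exactly 2 probe sets; lines mark Fosl1, Jund, Jun and Fosl2. Fosl1 lies at 0.02, and Jund, Jun and Fosl2 lie between 0.47 and 0.75, in the sparse right part of the distribution.

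Batf, required for several helper T cell fates and for effector Tregs, differed by 0.05, from deposited values of -0.03 in Hopx-sufficient and 0.03 in Hopx-deficient cells. Batf3, best known from dendritic cells, differed by -0.05, from deposited values of 0.02 and -0.02. Both were about as far from 0 as each other and in opposite directions. Atf3, a stress-induced bZIP protein that represses as a homodimer, was 1.12-fold lower (-0.17), deposited at 0.08 in Hopx-sufficient and -0.08 in Hopx-deficient cells.

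Hybridization spike-ins, made of non-mouse RNA, gave a technical reference: their 18 probe sets ran from -0.22 to 0.01, with a median of -0.12. They lay mostly on the lower side, so their extreme is not a symmetric scale of noise. Fosb, Fosl1, Junb, Jund, Atf3, Batf and Batf3, 7 of the 10 members, were no further from 0 than the most extreme spike-in. Jun, Fosl2 and Fos were further. The median distance from 0 over all genes was 0.12, also inside that limit, so the count says nothing particular about AP-1. The poly-A controls, bacterial transcripts, spread more widely, over 27 probe sets from -0.17 to 0.78, and of the AP-1 genes only Fos lay further from 0 than the highest of them. The central 95% of all genes, from -0.48 to 0.38, also lay no further from 0 than that control.

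Several members are neighbours in the genome. Fos (chr12:85473890-85477274), the AP-1 repressor gene Jdp2 (chr12:85598656-85639878) and Batf (chr12:85686720-85709087) follow each other on chromosome 12 in GRCm38.p6, with no other protein-coding gene of the RefSeq table inside that stretch. Their differences were 1.10, 0.27 and 0.05. Jdp2 had both probe sets on the higher side, at 0.20 and 0.34. A regional effect was not tested. Batf3 (chr1:191098414-191108943) and Atf3 (chr1:191170296-191183333) lie close together on chromosome 1, with Fam71a between them, and these 3 genes stood at -0.05, -0.17 and 0.06. Junb and Jund are both on chromosome 8, further apart.

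Genes that act before AP-1 were split between both directions. In the lists that follow, counts at 1.5-fold stand beside 0.297% of all genes higher and 1.31% lower, and counts of higher genes beside 50.1% of all genes. A count of 0 past 1.5-fold in a list of this size is near those shares and says nothing particular about the list. In the MAP kinase cascade 20 of 27 listed genes were measured, 9 of them higher and 11 lower, with a median of -0.05 and none 1.5-fold apart. The stress-kinase activators Map3k5 (0.35, probe sets at 0.31 and 0.39) and Map3k1 (0.29) and the kinase gene Araf (0.29, over 5 probe sets from 0.09 to 0.62) differed most. The remaining 7 were not analysed here. Of 9 regulators that bind the Fos promoter or assist there, 4 were higher and 5 lower, with a median of -0.00071 that turned to 0.0067 without centring and to 0.07 with the most different probe set of each gene. Srf, whose product interacts with Hopx in heart muscle, stood at -0.19 (probe sets at -0.31 and -0.06). Its cofactors of the ternary complex family, Elk1, Elk3 and Elk4, stood at -0.02, 0.20 and 0.07, with Elk1 named after its value was seen. Creb1 (0.03) and Crem (-0.06), whose products bind CRE half-sites like those printed for Fos, are named because of that motif and after their values were seen.

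Genes listed here as immediate-early were mostly higher. Whether each of them is induced together with Fos in these cells was not tested. Of the 25 genes in that list, all outside AP-1, 19 (76%, beside 50.1% of all genes) were higher and 6 lower, with a median of 0.21. At least 1.5-fold higher were 4 of the 25, beside 0.297% of all genes: Dusp6 (0.68) and Dusp1 (0.67), phosphatase genes that shut off MAP kinases, Zfp36 (0.62), whose product degrades AU-rich mRNAs, that of Fos among them, and the antiproliferative gene Btg1 (0.60, over 3 probe sets from 0.42 to 0.94). None was 1.5-fold lower. Of the 2 families of receptor-induced factors in this list, the 3 Egr genes ran from 0.18 to 0.39 and the 3 Nr4a genes from -0.16 to -0.08. Probe sets ran from -0.0019 to 0.36 for Egr3 and from -0.49 to 0.26 for Nr4a2, across 0 in both genes. Those of Egr2 (0.33 and 0.45) and Nr4a3 (-0.23 to -0.11) kept to 1 side. The genes of these 2 families are singled out after their values were seen. The direction of this group was known from earlier work on the same arrays and does not support the value of Fos independently.

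Genes that remove AP-1 mRNA or protein were measured for 12 of 14 listed members, 8 of them higher and 4 lower, with a median of 0.15. Zfp36, also in the immediate-early list with the same value from 1 probe set, led this list. It was the 1 member of 12 past 1.5-fold, beside 0.297% of all genes higher. Its relative Zfp36l1 stood at 0.31 (probe sets at 0.28 and 0.33), and Itch, a ubiquitin ligase for Jun proteins, at 0.28 over 4 probe sets from 0.08 to 0.37.

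**Figure D4:**
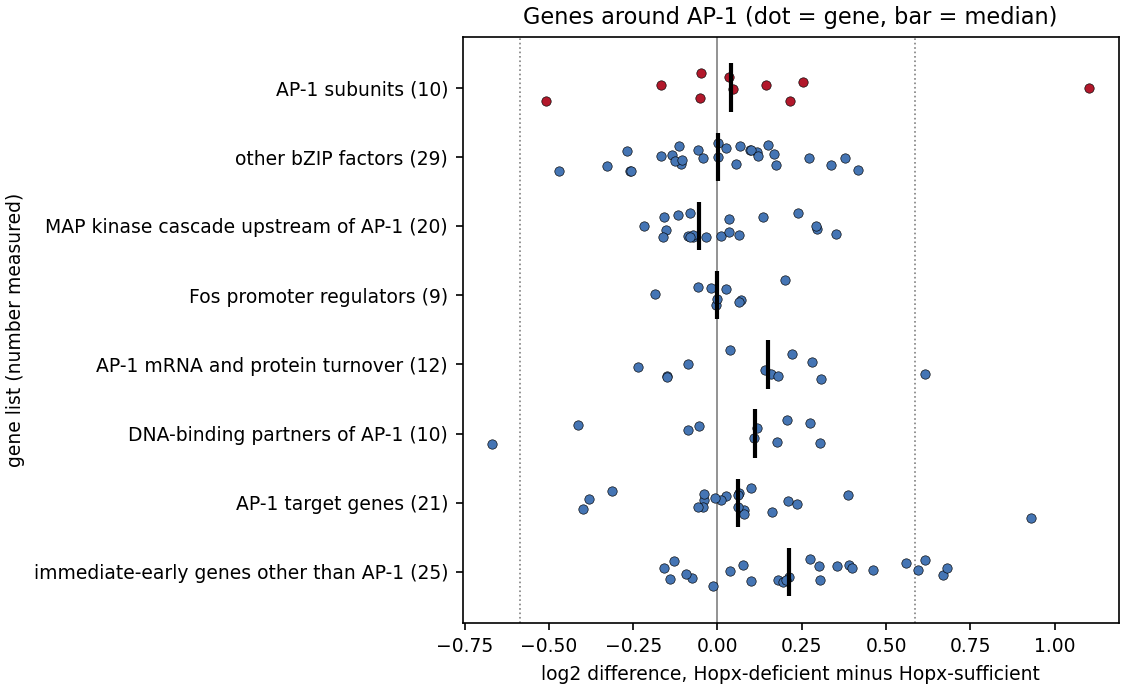
Log2 difference, Hopx-deficient minus Hopx-sufficient, of each measured gene (dots) in the AP-1 list and in 7 related lists, with the median of each list as a bar and 1.5-fold as dotted lines; the number measured is in brackets. The AP-1 list is centred near 0 with Fos far to the right, while the immediate-early list has a median of 0.21.

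Partners of AP-1 on DNA went both ways. Of 10, 6 were higher and 4 lower, with a median of 0.11 and a mean of -0.0036, so the 2 summaries differ in sign. Irf8 was 1.59-fold lower, with both probe sets at -0.67, and Irf4 was 1.33-fold lower (-0.41, probe sets at -0.58 and -0.24). These are the genes of the interferon regulatory factors that share composite sites with Batf and Jun. Runx1 was the highest at 0.30, over 6 probe sets from -0.12 to 0.65.

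Known AP-1 target genes had a median of 0.06, with 13 of 21 higher and 8 lower. Hmox1, at 1.90-fold higher, was the 1 target of 21 past 1.5-fold, beside 0.297% of all genes higher. Vim, the vimentin gene, stood at 0.39 with 3 probe sets from 0.33 to 0.42. The best known target in T cells, Il2, was 1.32-fold lower (-0.40, 1 probe set), opposite in sign to Fos. The 29 measured genes of other bZIP factors, out of 32 listed, had a median of 0.00090, with 16 higher, 13 lower and none 1.5-fold apart, beside 0.297% of all genes higher and 1.31% lower. The median was -0.02 once probe sets with shared-probe suffixes were left out. Cebpa (-0.47), Dbp (0.42) and Hlf (0.38) differed most.

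Markers of T cells and of other cell types also differed between the arrays. All 8 measured B cell markers were lower, with a median of -0.25, led by Fcmr (-0.48), Cd79a (-0.41) and Ebf1 (-0.40). Of 14 macrophage and dendritic cell markers 10 were higher, with a median of 0.33, led by the macrophage and monocyte markers Mrc1 (0.89), Cd14 (0.50) and Cd163 (0.47). The 4 lower ones were the macrophage marker Lyz2 (-0.38) and the dendritic cell markers Itgax (-0.11), Flt3 (-0.05) and Zbtb46 (-0.0027, too near 0 to have a direction), named after their values were seen. The dendritic cell marker Xcr1 stood at 0.27. Of 10 T cell and Treg markers 8 were higher, with a median of 0.25, led by Ikzf2 (0.37), Ctla4 (0.33) and Cd5 (0.32). The 2 lower ones were Il2ra (-0.06, probe sets at -0.19 and 0.08) and Cd4 (-0.01), named after their values were seen. For CD8 T and NK cells, 3 of 7 markers were higher and 4 lower (median -0.13; Nkg7 0.43, Klrd1 -0.42, Klrk1 -0.37). For granulocytes and mast cells the split was likewise 3 of 7 higher and 4 lower, around a median of -0.0031 that became 0.0043 without centring; Mcpt4 (0.34), Mpo (-0.21) and S100a8 (0.13) were furthest from 0. The part of other cells in the differences of Fos, Hmox1 or Irf8 was not tested, and without levels no summed marker signal can be given.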

How the data were processed

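Per the labels, the extracted molecule was total RNA and the label biotin, on single-colour arrays. The arrays held 45101 probe sets. The deposited values are on a log2-type scale, from which the authors had removed each probe set's mean over the 2 arrays: the columns sum to 0 within 1e-06 in every row. Summarisation, normalization between arrays and the log base are not given in the sources used here; base 2 was assumed, and natural logs would enlarge every log2 difference by a factor of 1.44. The number of arrays limits the precision, and with 1 array per genotype no test was made.

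Gene names came from the platform annotation (2016), with symbols updated by gene ID through a RefSeq table (GRCm38.p6), which held the IDs of 34741 of the 34945 single-symbol probe sets. Control probe sets (64) and those with several symbols (932) or none (9160) stayed out of gene counts. The column difference was centred on its median over probe sets with 1 symbol (0.0075), and probe sets of a gene were averaged. Named genes are all members, Hopx, the ranks next to Fos, and in each list the 3 members that differed most and all at least 1.5-fold apart; others are marked in the text. The members and lists were chosen with earlier results of these data known. The code for centring and gene means was run on shuffled differences of these arrays with shifts added to some genes. It returned the shifts. That outcome was set by arithmetic, so it checks the code only and not the choice of processing. Alternatives were no centring, a gene's median or most different probe set, no probe sets with the suffixes s, x or a, natural logs, and inclusion of probe sets with several symbols. Python 3.11.15, numpy 2.4.6, pandas 2.3.3 and matplotlib 3.10.9 were used.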

Additional observations from a re-analysis of the deposited data

How the results depend on the processing

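Across 6 alternatives to the processing, Fos remained the 1 AP-1 gene at least 1.5-fold and 2-fold higher, with a difference from 1.10 to 1.59, and none of the 10 genes changed sign. These outcomes were largely set beforehand. Fos has 1 probe set. With 2 probe sets the median equals the mean, and the more different one has the mean's sign. Leaving out centring shifts every value by 0.0075, and natural logs rescale every value. No alternative used the other probe set of Jun (-0.03) or Jund (0.19), each opposite in sign to its gene mean. The number of AP-1 genes at least 1.5-fold lower went from 0 to 1, that gene being Fosl2, when each gene was represented by its most different probe set (-0.88) and when natural logs were assumed (-0.73). The most different probe set also moved Jun to 0.53 and Jund to -0.29. The median of the AP-1 genes ran from 0.04 to 0.06. None of the 14 probe sets carried a shared-probe suffix and none of the probe sets with several symbols named a member, so those alternatives left the members as they were. Of the medians of the related lists, 5 values changed sign, all within 0.07 of 0. The MAP kinase median became 0.01 without shared-probe suffixes, and that of granulocyte and mast cell markers became 0.0043 without centring. No value could be given without an array, and no filter on signal was possible. No paired analysis was possible because there is 1 array of each genotype.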
